A study of Mus musculus with 22 samples.

Results

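Levels of 10 macrophage genes were followed across 22 RNA libraries of the mouse left ventricle, out of 30735 genes in the deposited tables. They were taken by name from a fixed list: Lyz2, Adgre1, Cd68, Csf1r, the complement genes C1qa, C1qb and C1qc, Mrc1, Cd163 and Chil3. All 10 were found in both tables by their Ensembl identifiers, and all 10 are protein-coding.

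The study asked how valosin-containing protein (VCP), an ATPase that unfolds and extracts ubiquitin-marked proteins, affects the heart under pressure overload. All mice were of the FVB strain, aged 3-5 months, and either wild type (WT) or carrying a VCP transgene (VCP TG). The sources used here do not give the promoter that drives the transgene. Pressure overload came from transverse aortic constriction (TAC), in which a suture narrows the aortic arch and the left ventricle pumps against a higher load, and a sham operation served as its control. In all, 6 groups were measured. At 2 weeks there were 4 libraries of WT mice after sham surgery, 4 of VCP TG mice after sham surgery, 4 of WT mice after TAC and 3 of VCP TG mice after TAC. At 5 weeks there were 4 libraries of WT mice and 3 of VCP TG mice, all after TAC, so no 5-week sham group enters here. The labels do not say that each library came from its own mouse, and the p-values below measure the spread between libraries, which may be technical.

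Macrophages of the heart include resident cells, many of them seeded before birth, and cells that arise from blood monocytes recruited after injury. They depend on signals through the CSF1 receptor, engulf dying cells and debris, and secrete the lysozyme and complement proteins for which they are known. Mannose receptor (Mrc1) and CD163 are commonly used as markers of resident or alternatively activated macrophages, and Chil3 (Ym1) is a secreted chitinase-like protein known from alternatively activated macrophages, alveolar macrophages and neutrophils of the mouse. In bulk tissue a lower value of such a gene can come from fewer cells or from less RNA per cell, and these cannot be told apart.

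The values are in TPM, the transcripts of a gene relative to all transcripts, a level scaled for gene length and for the total of the library, and the read depth behind them is unknown. Transcripts of mitochondrial genes took 27.9% to 72.9% of the TPM of a library, and 11629 to 16813 genes reached 1 TPM. The 6 cardiomyocyte markers were above 1 TPM in every library (summed TPM 15780 to 32894). Vcp, the gene of the transgene, ranged from 39.1 to 186 TPM, and its level rescaled to nuclear protein-coding genes went against the label in 5 libraries: VCP TG sham replicate 1, WT 2 weeks TAC replicate 1, WT 5 weeks TAC replicates 2 and 3 and VCP TG 5 weeks TAC replicate 3. The side was set by splitting the rescaled values of the 22 libraries into 2 classes. VCP TG sham replicate 1 (215) fell in the lower class but above all WT sham libraries (162 to 204), so its call is less clear. A further set of 5 libraries, sought in the 2-week table alone, was rich in the atrial myosin light chain Myl7: VCP TG sham replicates 3 and 4, WT 2 weeks TAC replicate 1 and VCP TG 2 weeks TAC replicates 1 and 2. These libraries are kept below in the group that the label gives, and for some results values without such libraries are also given.

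The promoters of the genes that carried the main patterns are shown to set them beside the measurements. Chil3 was the 1 gene of the 10 that passed in a fit of all groups, and Lyz2 had the highest mean in all 6 groups. C1qb and C1qc are neighbours that varied together, as other pairs of the 10 genes also did. RefSeq (GRCm38.p6) gave a promoter for 7 of the 10 genes, and each line holds the 250 bases before the start site, 5′ to 3′ on the strand of the gene. Capitals mark the letters GAGGAA on either strand (TTCCTC where the match is on the other strand), the core bound by PU.1, the transcription factor known for specifying macrophages.
Chil3 (chr3:106167565-106167814, minus strand): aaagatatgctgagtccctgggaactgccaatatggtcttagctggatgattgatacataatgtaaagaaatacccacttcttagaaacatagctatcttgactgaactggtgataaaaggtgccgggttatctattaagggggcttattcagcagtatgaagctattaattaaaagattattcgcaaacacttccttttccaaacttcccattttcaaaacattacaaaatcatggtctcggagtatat
Lyz2 (chr10:117282273-117282522, minus strand): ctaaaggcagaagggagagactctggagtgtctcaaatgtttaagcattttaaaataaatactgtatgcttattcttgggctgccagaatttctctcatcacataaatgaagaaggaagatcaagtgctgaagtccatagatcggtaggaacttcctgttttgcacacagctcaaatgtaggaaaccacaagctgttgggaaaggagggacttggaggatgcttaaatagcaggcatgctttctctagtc
C1qb (chr4:136886201-136886450, minus strand): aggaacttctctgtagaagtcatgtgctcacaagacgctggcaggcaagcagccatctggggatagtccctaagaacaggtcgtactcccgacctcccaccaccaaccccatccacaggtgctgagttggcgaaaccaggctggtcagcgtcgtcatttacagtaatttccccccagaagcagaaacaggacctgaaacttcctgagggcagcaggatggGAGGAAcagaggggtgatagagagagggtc
C1qc (chr4:136892915-136893164, minus strand): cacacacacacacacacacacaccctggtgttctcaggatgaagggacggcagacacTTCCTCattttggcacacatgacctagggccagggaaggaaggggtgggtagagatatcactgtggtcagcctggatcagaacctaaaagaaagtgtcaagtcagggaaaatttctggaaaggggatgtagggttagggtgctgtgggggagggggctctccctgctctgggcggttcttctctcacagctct
The core letters occurred once in C1qb, with the first base 30 bases before the start site, once in C1qc (193 bases before), once in Cd68 (225 bases before) and at 3 places in Mrc1. They did not occur in these windows of Lyz2, Cd163 and Chil3. Among 32851 promoter windows of the same length, 23.3% held them, so the letters are common and a match is a description only. Adgre1, C1qa and Csf1r are named without a sequence.

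Chil3 (ENSMUSG00000040809) lies on chromosome 3 at 106147554 to 106167564 of GRCm38, on the minus strand. In WT sham libraries Chil3 was at 0, 0.567, 0.624 and 0.180 TPM, where the 0 is a listed value. In WT 2 weeks TAC it was at 2.76, 1.41, 1.71 and 1.84 TPM, so that these 4 libraries lay above every WT sham library. VCP TG sham libraries held 2.07, 0.515, 1.32 and 2.47 TPM, and VCP TG 2 weeks TAC libraries held 8.36, 5.07 and 5.96 TPM. The 3 VCP TG 2 weeks TAC values were above all other libraries of the 2-week table. In the separately deposited 5-week table WT TAC libraries held 0.454, 3.19, 1.86 and 1.53 TPM and VCP TG TAC libraries held 6.19, 2.25 and 2.54 TPM, and the groups overlapped.

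Chil3 rose with TAC in VCP TG hearts. Its level on the log2(TPM + 1) scale was higher by 1.57 ± 0.29 (SE; 2.97-fold on TPM + 1) than in VCP TG sham, with an adjusted p of 0.0210 (limma, Benjamini-Hochberg over all genes tested). It was the only 1 of the 10 genes to pass 0.05 in that comparison, in which 0.766% of the 15540 genes tested were called higher. The call was lost with a pseudocount of 0.1 (adjusted p = 0.151), after quantile normalization (0.0584), after rescaling to nuclear protein-coding genes (0.0905), in a fit of the 2 groups alone (0.0718), with a replicate block in a fit of the 2 groups that also left out VCP TG sham replicate 4 (0.306) and without the libraries rich in Myl7 (0.132, by limma in each case). Leaving out single libraries also ended it for VCP TG sham replicate 2 (adjusted p = 0.0862), VCP TG 2 weeks TAC replicate 1 (0.332) or VCP TG 2 weeks TAC replicate 3 (0.0887).

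Differences of Chil3 in the other comparisons did not pass in the fit of all groups. TAC against sham in WT gave 1.14 ± 0.27 (limma adjusted p = 0.213), and VCP TG against WT gave 0.91 ± 0.27 in sham (adjusted p = 1.00), 1.34 ± 0.29 at 2 weeks of TAC (adjusted p = 0.102) and 0.76 ± 0.38 at 5 weeks of TAC (adjusted p = 0.904). All 5 differences pointed to a higher level with TAC or with the transgene. In a limma fit of the WT groups alone, where 0.722% of genes were called higher, the change with TAC passed (adjusted p = 0.0213). In a limma fit without a filter on low values the VCP TG against WT difference at 2 weeks of TAC passed (adjusted p = 0.0298). That fit called 634 of 29528 genes in this comparison. The response to TAC differed between VCP TG and WT by 0.43 ± 0.40 (limma adjusted p = 0.889), which turned to -0.42 with a pseudocount of 0.1 and to -0.26 after rescaling to nuclear protein-coding genes.

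A part of the Chil3 transcript is shared with near-identical relatives, and 41.5% of its 31-base words also occur in transcripts of Chil4, Gm6522, Chia1 or Chil5. Chil4 (Ym2), the closest relative, held 0 to 0.597 TPM in WT sham, 0.817 to 2.55 in WT 2 weeks TAC, 0.466 to 1.39 in VCP TG sham and 1.74 to 5.70 in VCP TG 2 weeks TAC, so the split of reads between the genes is uncertain. With the TPM of Chil3 and Chil4 summed, the TAC response in VCP TG was 1.62 ± 0.34 (limma adjusted p = 0.0354) and that in WT was 1.57 ± 0.32 (adjusted p = 0.0877), and the difference between these responses was 0.05 ± 0.47.

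Other measures moved with Chil3. The mean TPM of 1344 olfactory and vomeronasal receptor genes, chemosensory receptors that are known from sensory epithelium and not from heart muscle, was 0.0450 to 0.0728 in WT sham, 0.0559 to 0.292 in VCP TG sham, 0.107 to 0.1998 in WT 2 weeks TAC, then 0.311 to 0.841 in VCP TG 2 weeks TAC. The library with the highest receptor mean, VCP TG 2 weeks TAC replicate 1 (0.841), also had the highest Chil3 level (8.36 TPM), and WT sham replicate 1, with the lowest receptor mean (0.0450), had Chil3 at 0. VCP TG 5 weeks TAC replicate 1, second in Chil3 across the separately deposited tables, had a receptor mean of 0.456. VCP TG sham replicate 3 had the highest receptor mean of its group (0.292) but less Chil3 (1.32 TPM) than replicates 1 and 4 (2.07 and 2.47 TPM at receptor means of 0.0833 and 0.121). The plot of Chil3 and C1qc against the receptor mean shows that C1qc did not follow it in this way. The part of this measure, which was chosen after the data were seen, in the Chil3 result was not tested.

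**Figure D1:**
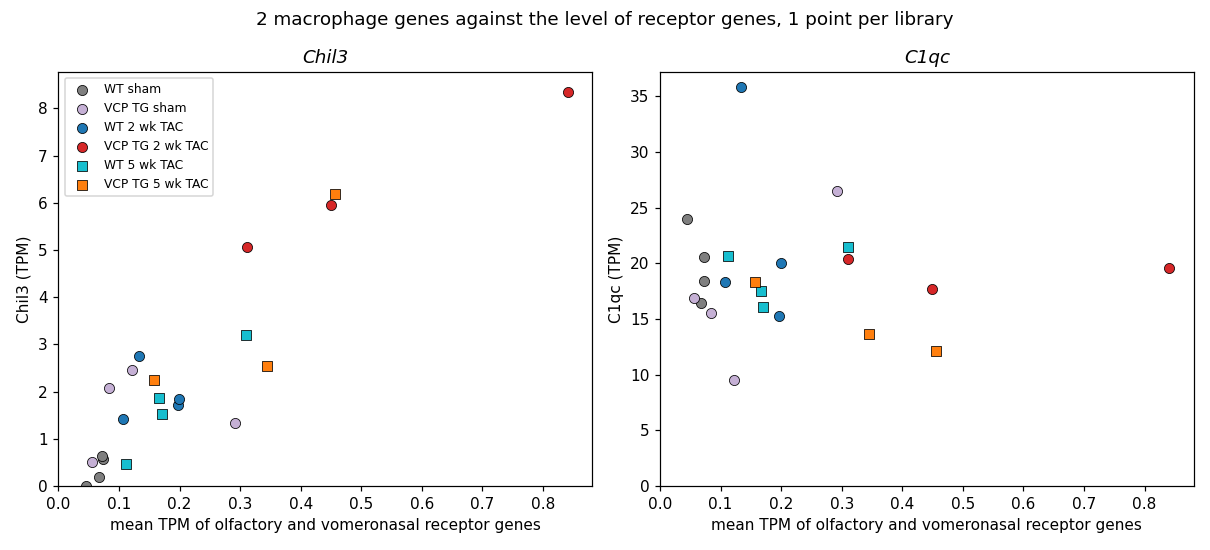
Level of Chil3 (left) and C1qc (right) in TPM against the mean TPM of 1344 olfactory and vomeronasal receptor genes, with 1 point for each of the 22 libraries, coloured by group (squares: 5-week table). The 3 VCP TG 2 weeks TAC libraries lie at a receptor mean of 0.311 to 0.841 and a Chil3 level of 5.07 to 8.36 TPM, while their C1qc levels (17.7 to 20.4 TPM) lie among those of the other groups.

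Markers of other cell types were measured in the same libraries. The 6 lung markers summed to 2.32 to 3.60 TPM in VCP TG 2 weeks TAC, above the 0.168 to 1.92 TPM of all other libraries, and 2 of the 6 reached 1 TPM in any library. The surfactant gene Sftpc, which defines alveolar type II cells, was at 0 to 0.297 TPM in VCP TG 2 weeks TAC and at 0 to 0.0673 TPM in WT 2 weeks TAC. The 10 neutrophil markers summed to 22.2 to 46.5 TPM in VCP TG 2 weeks TAC, 13.2 to 17.95 in WT 2 weeks TAC, 10.9998 to 43.0 in VCP TG sham and 15.2 to 84.6 in WT sham. In VCP TG 2 weeks TAC most of that sum was Cxcr2 (19.5 to 40.4 TPM), while the neutrophil genes S100a8 (0.803 to 1.86 TPM) and S100a9 (0.280 to 0.857 TPM) were low. Between VCP TG and WT at 2 weeks of TAC, summed markers did not overlap for mast cells (7.11 to 13.3 against 3.63 to 6.61 TPM), T and natural killer cells (17.3 to 30.8 against 12.9 to 17.1 TPM) and B cells (3.47 to 7.31 against 2.26 to 3.42 TPM). The number of genes at 1 TPM was also higher, at 13891 to 16813 against 12868 to 13414. In that comparison 19% of all genes tested lay without overlap in the higher direction. The summed dendritic cell markers overlapped (11.3 to 16.1 against 10.9 to 12.4 TPM). Of the mast cell markers 3 of 6, and of the B cell markers 4 of 6, reached 1 TPM in any library. No marker of these lists was at 0 in every library, and the part of these measures in the Chil3 values was not tested.

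Lyz2 (ENSMUSG00000069516), the lysozyme of macrophages that cleaves bacterial cell walls, lies on chromosome 10 at 117277331 to 117282321. In WT sham it was at 65.5, 38.2, 29.1 and 27.6 TPM, and in WT 2 weeks TAC at 149, 70.8, 47.2 and 92.9 TPM. VCP TG sham libraries held 45.1, 44.5, 66.2 and 26.4 TPM and VCP TG 2 weeks TAC libraries 45.0, 61.2 and 46.0 TPM. Of the 4 WT 2 weeks TAC libraries, 3 were above every other library of the 2-week table, while the ranges of TAC and sham overlapped in both genotypes. In the 5-week table Lyz2 was at 57.6, 46.9, 33.7 and 42.6 TPM in WT and at 33.7, 34.7 and 20.01 TPM in VCP TG, with the ranges meeting at 33.7 to 34.7 TPM. Without the libraries whose Vcp went against the label it was at 57.6 and 42.6 TPM in WT and 33.7 and 34.7 TPM in VCP TG.

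The difference of Lyz2 with TAC was 1.11 ± 0.34 on the log2(TPM + 1) scale in WT (limma adjusted p = 0.327) and 0.21 ± 0.37 in VCP TG (adjusted p = 1.00). Neither passed, and the difference between these responses was -0.90 ± 0.51 (limma adjusted p = 0.872). With replicate numbers as a block in a fit of the WT groups, the change with TAC passed (limma adjusted p = 0.0228), but the same numbers did not pair the libraries in that comparison. That fit called 137 of 13709 genes higher and 522 lower. Without WT 2 weeks TAC replicate 1 the WT difference was 0.83 ± 0.34 (limma adjusted p = 0.540). VCP TG against WT was -0.71 ± 0.37 at 2 weeks of TAC (limma adjusted p = 0.611) and -0.61 ± 0.25 at 5 weeks (unadjusted p = 0.0328, adjusted p = 0.904). Of the words of 31 bases in Lyz2, 32.8% also occur in Lyz1, its neighbour and near copy, but Lyz1 was at most 0.920 TPM, and summing both moved the WT difference only to 1.12 ± 0.34.

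Adgre1 (ENSMUSG00000004730, chromosome 17, 57358691 to 57483527) encodes F4/80, the surface receptor used to sort mouse macrophages. It was low, at 1.90, 0.729, 0.479 and 0.598 TPM in WT sham against at 2.88, 1.79, 1.76 and 1.67 TPM in WT 2 weeks TAC. The 3 lower WT sham libraries were below all WT 2 weeks TAC libraries, and WT sham replicate 1 overlapped them. VCP TG sham libraries held 1.77, 1.25, 1.72 and 1.22 TPM and VCP TG 2 weeks TAC libraries 1.95, 1.55 and 1.07 TPM, which overlapped. The WT difference with TAC was 0.69 ± 0.24 (limma adjusted p = 0.354) and the VCP TG one was 0.01 ± 0.26 (adjusted p = 1.00), with a difference between them of -0.68 ± 0.35 (adjusted p = 0.872). At 5 weeks of TAC, WT held 1.94, 2.12, 0.687 and 2.19 TPM and VCP TG 1.16, 1.21 and 0.506 TPM (-0.46 ± 0.27, limma adjusted p = 0.904). Adgre1 reached 1 TPM in 12 of the 15 libraries at 2 weeks and 5 of the 7 at 5 weeks, and Chil3 in 10 and 6, while the other 8 genes reached it in every library.

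Cd68 (ENSMUSG00000018774, chromosome 11, 69664213 to 69666153) encodes macrosialin, a glycoprotein of the lysosomes of phagocytes. WT sham libraries held 7.18, 3.70, 5.65 and 6.05 TPM and WT 2 weeks TAC libraries 13.2, 7.40, 6.52 and 8.90 TPM. In VCP TG hearts Cd68 was at 4.77, 5.86, 7.06 and 5.01 TPM after sham surgery and at 8.85, 10.4 and 7.83 TPM after 2 weeks of TAC, without overlap. The difference with TAC was of like size in both genotypes, 0.58 ± 0.25 in WT (limma adjusted p = 0.403) and 0.59 ± 0.27 in VCP TG (adjusted p = 0.514), and passed in neither. The difference between these responses was 0.02 ± 0.37. Cd68 and Chil3 were the 2 of 10 genes whose VCP TG libraries did not overlap between TAC and sham in the higher direction, which held for 3.35% of all genes tested. At 5 weeks of TAC the values were 8.51, 11.4, 7.84 and 8.04 TPM in WT and 8.42, 8.10 and 5.37 TPM in VCP TG.

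Csf1r (ENSMUSG00000024621, chromosome 18, 61100598 to 61132149) encodes the receptor for CSF1 and IL-34, on which most macrophages depend for survival. It was at 9.78, 8.01, 3.59 and 4.18 TPM in WT sham against 15.3, 7.53, 7.82 and 7.77 TPM in WT 2 weeks TAC, with a difference of 0.56 ± 0.32 (limma adjusted p = 0.508). VCP TG sham held 7.29, 6.67, 11.7 and 3.94 TPM and VCP TG 2 weeks TAC 6.83, 8.94 and 6.93 TPM (0.10 ± 0.35, adjusted p = 1.00). At 5 weeks of TAC it was at 7.87, 8.21, 4.81 and 6.83 TPM in WT and at 5.53, 5.81 and 3.33 TPM in VCP TG, a difference of -0.44 ± 0.23 (limma adjusted p = 0.904). In each of these comparisons the groups overlapped. The gene Hmgxb3 on the other strand overlaps Csf1r over 873 bases, and 14.95% of the words of 31 bases in Csf1r also occur in other genes. The kit marks strand, but how the authors counted is not stated.

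**Figure D2:**
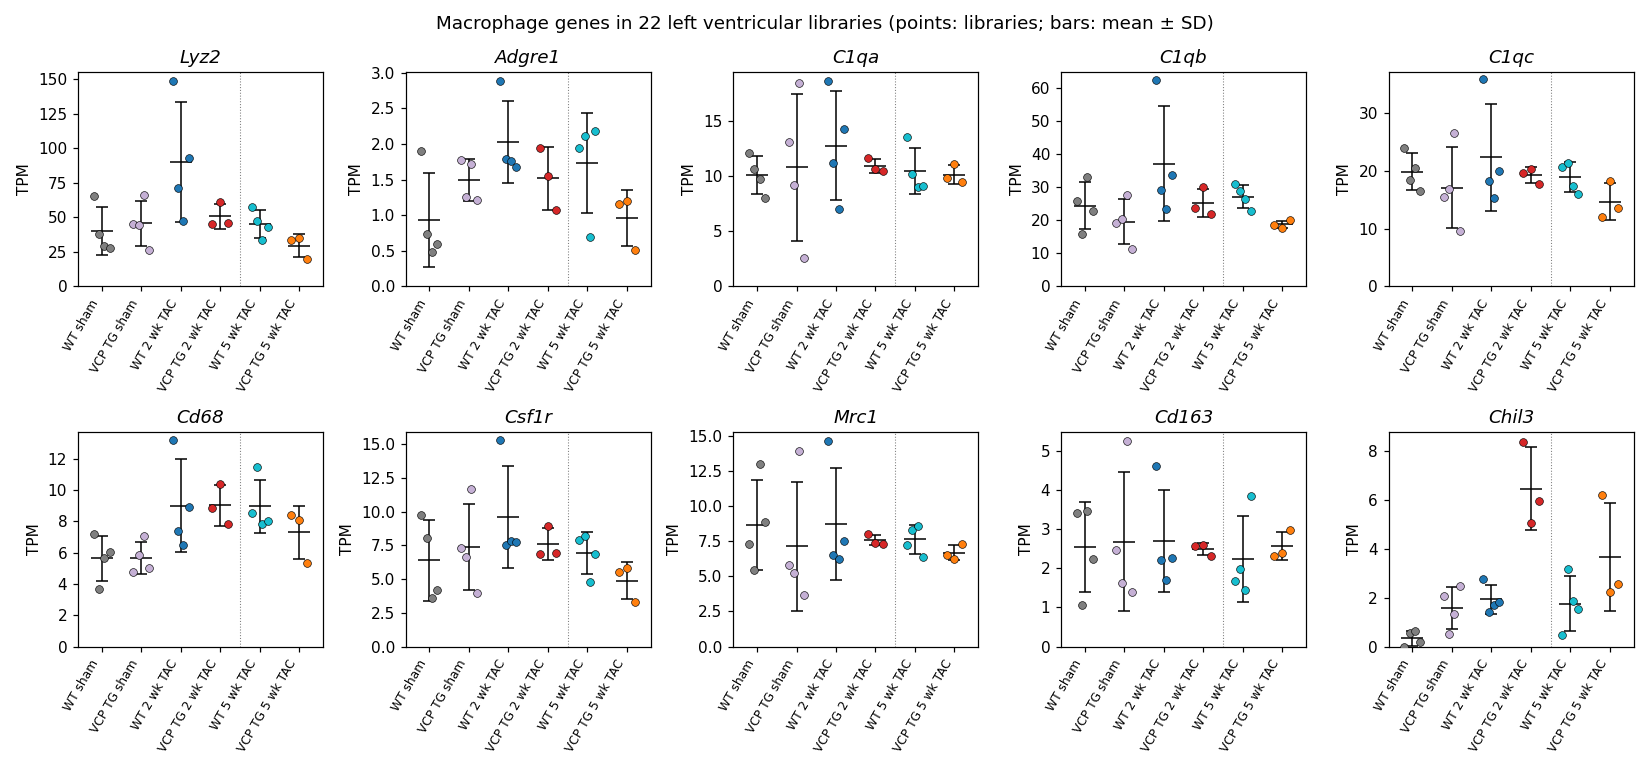
TPM of the 10 genes in each library, with the mean and SD of each group, 4 libraries in the WT and sham groups and 3 in the VCP TG TAC groups. The dotted line separates the 2-week table from the 5-week table. WT 2 weeks TAC replicate 1 is the highest of its group in all 10 genes, and Chil3 is highest in VCP TG 2 weeks TAC (5.07 to 8.36 TPM).

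C1qa (ENSMUSG00000036887), C1qb (ENSMUSG00000036905) and C1qc (ENSMUSG00000036896) encode the 3 chains of C1q, which starts the classical complement pathway and tags debris for uptake. The 3 genes lie within 18675 bases on chromosome 4 (136880129 to 136898803), on the minus strand. The 4 WT sham libraries held C1qb at 25.8, 15.9, 33.1 and 23.0 TPM, and after 2 weeks of TAC the WT libraries held 62.4, 29.2, 23.3 and 33.8 TPM. VCP TG hearts held 19.2, 20.3, 27.7 and 11.3 TPM of C1qb after sham surgery and 23.6, 30.2 and 21.9 TPM after 2 weeks of TAC. All 4 ranges overlapped. C1qc ranged from 16.5 to 24.0 TPM in WT sham, 15.2 to 35.9 in WT 2 weeks TAC, 9.52 to 26.5 in VCP TG sham and 17.7 to 20.4 in VCP TG 2 weeks TAC, and C1qa from 8.02 to 12.1, 6.97 to 18.6, 2.53 to 18.4 and 10.5 to 11.6 TPM in the same order. The TAC difference in WT was 0.25 ± 0.39 for C1qa, 0.53 ± 0.31 for C1qb and 0.10 ± 0.29 for C1qc, and limma adjusted p-values were 0.831, 0.512 and 0.915.

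At 5 weeks of TAC, C1qb was at 30.9, 29.0, 26.3 and 22.7 TPM in WT and at 18.6, 17.8 and 19.97 TPM in VCP TG, so all 3 VCP TG libraries were below all 4 WT libraries. The difference was -0.50 ± 0.18 (unadjusted p = 0.0166, limma adjusted p = 0.904) and did not pass. C1qb was the only 1 of the 10 genes whose groups did not overlap there in the lower direction, as for 1.74% of the 13986 genes tested. WT replicates 2 and 3 and VCP TG replicate 3 of this table had Vcp against the label. Without them C1qb was at 30.9 and 22.7 TPM in WT and at 18.6 and 17.8 TPM in VCP TG. C1qc, at 20.7, 21.5, 17.5 and 16.1 TPM in WT and 12.1, 18.3 and 13.6 in VCP TG, had a difference of -0.36 ± 0.20 (adjusted p = 0.904). C1qa, at 13.5, 10.1, 8.97 and 9.13 TPM in WT and 9.84, 11.1 and 9.45 in VCP TG, had a difference of -0.03 ± 0.19 (adjusted p = 0.986).

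The 3 chains are known to be made in equal numbers for the C1q protein, but their mRNA levels per length were unequal. The ratio of C1qb to C1qa ran from 1.47 to 4.49 over the 22 libraries (median 2.33), that of C1qc to C1qa from 1.19 to 3.77 (median 1.75) and that of C1qb to C1qc from 0.864 to 1.74 (median 1.40). VCP TG sham replicate 4, which had the highest mitochondrial share (72.9%), held both highest ratios over C1qa, with C1qa at 2.53 TPM. The ratio of C1qb to C1qc was 1.64 ± 0.09 (SD, n = 4) in WT 2 weeks TAC, 1.23 ± 0.33 (n = 4) in WT sham, 1.17 ± 0.08 (n = 4) in VCP TG sham and 1.31 ± 0.15 (n = 3) in VCP TG 2 weeks TAC.

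Mrc1 (ENSMUSG00000026712, chromosome 2, 14229392 to 14332057), the mannose receptor that takes up glycoproteins, and Cd163 (ENSMUSG00000008845, chromosome 6, 124304656 to 124330527), the scavenger receptor for haemoglobin bound to haptoglobin, differed little between groups. Mrc1 was at 7.29, 5.47, 13.03 and 8.88 TPM in WT sham against 14.7, 6.49, 6.26 and 7.55 in WT 2 weeks TAC, a difference of -0.01 ± 0.33 that became 0.20 after quantile normalization and 0.01 after rescaling (limma adjusted p = 0.995 in the fit of all groups). VCP TG held 5.80, 5.22, 13.9 and 3.69 TPM after sham surgery and 7.99, 7.41 and 7.33 TPM after 2 weeks of TAC. WT hearts held Cd163 at 3.40, 1.06, 3.47 and 2.24 TPM after sham surgery and at 4.62, 2.21, 1.70 and 2.26 TPM after 2 weeks of TAC. In VCP TG hearts Cd163 was at 2.46, 1.61, 5.26 and 1.38 TPM after sham surgery and at 2.57, 2.60 and 2.31 TPM after TAC. Within VCP TG sham, replicate 3 was the highest library and replicate 4 the lowest for both genes. At 5 weeks of TAC, Mrc1 ranged from 6.39 to 8.62 TPM in WT and 6.27 to 7.31 in VCP TG, and Cd163 from 1.44 to 3.84 and 2.32 to 2.98 TPM.

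In each group Lyz2 had the highest mean, followed by C1qb, C1qc and C1qa. In WT sham the means were 40.1 ± 17.5 TPM for Lyz2, 24.4 ± 7.11 for C1qb, 19.9 ± 3.23 for C1qc and 10.1 ± 1.70 for C1qa (SD, n = 4), and the ranges of neighbours in this order overlapped except for C1qc and C1qa. Mrc1, Csf1r and Cd68 followed at 8.67 ± 3.22, 6.39 ± 2.99 and 5.65 ± 1.45 TPM, then Cd163 at 2.54 ± 1.14, Adgre1 at 0.928 ± 0.659 and Chil3 at 0.343 ± 0.302 TPM. Chil3 was last in WT sham (rank 10) and rank 8 in VCP TG 2 weeks TAC, where its 6.46 ± 1.70 TPM (n = 3) overlapped the range of Csf1r. Lyz2 made up 39.9% to 48.6% of the summed TPM of the 10 genes in WT 2 weeks TAC, 24.4% to 41.7% in WT sham, 36.8% to 39.8% in VCP TG sham and 33.0% to 38.6% in VCP TG 2 weeks TAC.

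TAC in WT hearts, read over the list, gave 9 of 10 genes above 0 against 35.6% of the 15540 genes tested, and a median difference of 0.54 against -0.13 for all genes. None passed an adjusted p of 0.05 in the limma fit of all groups, where 0% of genes were called in either direction, and 4 had an unadjusted p under 0.05 (11.4% of all genes): Chil3, Lyz2, Adgre1 and Cd68. The WT libraries of Chil3 alone did not overlap, as for 2.48% of genes in the higher direction, and 0 of the 10 genes were without overlap in the lower direction (13.7% of genes). In the fit of the WT groups alone, in which 0.722% of genes were called higher and 6.31% lower, 1 of the 10 passed (Chil3). WT 2 weeks TAC replicate 1 was the highest library of its group in all 10 genes, was rich in Myl7 and had Vcp at 119 TPM. Without it the differences were 0.83 for Lyz2, 0.56 for Adgre1, 0.39 for Cd68, 0.33 for Csf1r and 1.01 for Chil3, and those of C1qc (-0.14) and Cd163 (-0.15) turned below 0. The median difference of all genes tested moved by over 0.1 with the scaling, from -0.13 to -0.01 after quantile normalization in this comparison and from 0.02 to -0.22 after rescaling to nuclear protein-coding genes in VCP TG.

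TAC in VCP TG hearts gave 10 of 10 genes above 0 against 52.4% of all genes, with a median of 0.23 against 0.02. Chil3 and Cd68 had an unadjusted p under 0.05 (8.77% of all genes), and none was called lower (0.00644% of genes) or lay without overlap in the lower direction (0.676%). These comparisons share their VCP TG TAC or WT libraries with those between genotypes. Apart from Chil3 (1.57) and Cd68 (0.59) the differences lay between 0.01 (Adgre1) and 0.40 (C1qb). After rescaling to nuclear protein-coding genes, 6 of them turned below 0: Lyz2 (-0.10), Adgre1 (-0.24), C1qc (-0.06), Csf1r (-0.18), Mrc1 (-0.05) and Cd163 (-0.20). Without VCP TG sham replicate 4, the library with the highest mitochondrial share, 6 of the 10 differences lay below 0: Lyz2 (-0.02), Adgre1 (-0.04), C1qa (-0.24), Csf1r (-0.13), Mrc1 (-0.00084) and Cd163 (-0.14). The median of all genes tested was then -0.21.

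VCP TG against WT after sham surgery gave 6 of 10 genes above 0 (47.8% of all genes) and a median of 0.02 against -0.01. None passed by limma, with 0% of all genes called. Chil3 had an unadjusted limma p of 0.00288, the only one of the 10 genes under 0.05 (3.96% of all genes). With the replicate number as a block in a fit of both sham groups, its difference was 0.91 ± 0.32 (limma adjusted p = 1.00), and 0 of the 10 genes passed. No gene of the list was without overlap between these groups, a pattern found for 0.605% of genes in the higher and 0.431% in the lower direction.

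Under TAC the VCP TG against WT differences were mostly below 0. At 2 weeks 8 of 10 were below 0, while 73.2% of all genes were above 0, and the median was -0.14 against 0.16. None passed by limma, with 0.0901% of genes called higher and 0% lower. Chil3 had an unadjusted limma p of 0.000154, the only one of the 10 genes under 0.05 (9.58% of all genes). Chil3 was the only gene of the list whose groups did not overlap, in the higher direction, which held for 19% of all genes, and none lay without overlap in the lower direction (2.78%). Without the libraries whose Vcp went against the label, C1qa (0.06), C1qc (0.11), Mrc1 (0.15) and Cd163 (0.20) turned above 0.

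At 5 weeks 8 of 10 were again below 0, with 54.3% of all genes above 0, and the median was -0.31 against 0.03. None passed by limma, with 0.00715% of genes called higher and 0% lower, and 2 had an unadjusted p under 0.05 (C1qb and Lyz2, against 4.49% of all genes). No member lay without overlap in the higher direction (3.4% of genes). The exceptions were Chil3 (0.76) and Cd163 (0.19). These groups include WT replicates 2 and 3 and VCP TG replicate 3, whose Vcp went against the label. Without them 0 of 12890 genes tested passed by limma. The difference between the 5-week and 2-week contrasts had limma adjusted p-values of 1.00 for all 10 genes, with 0 unadjusted p-values under 0.05 and 0% of 16347 genes called higher and 0.00612% lower. For the difference of the TAC response between genotypes, 0 of 10 passed by limma and 0 had an unadjusted p under 0.05, with 0.00644% of genes called higher.

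**Figure D3:**
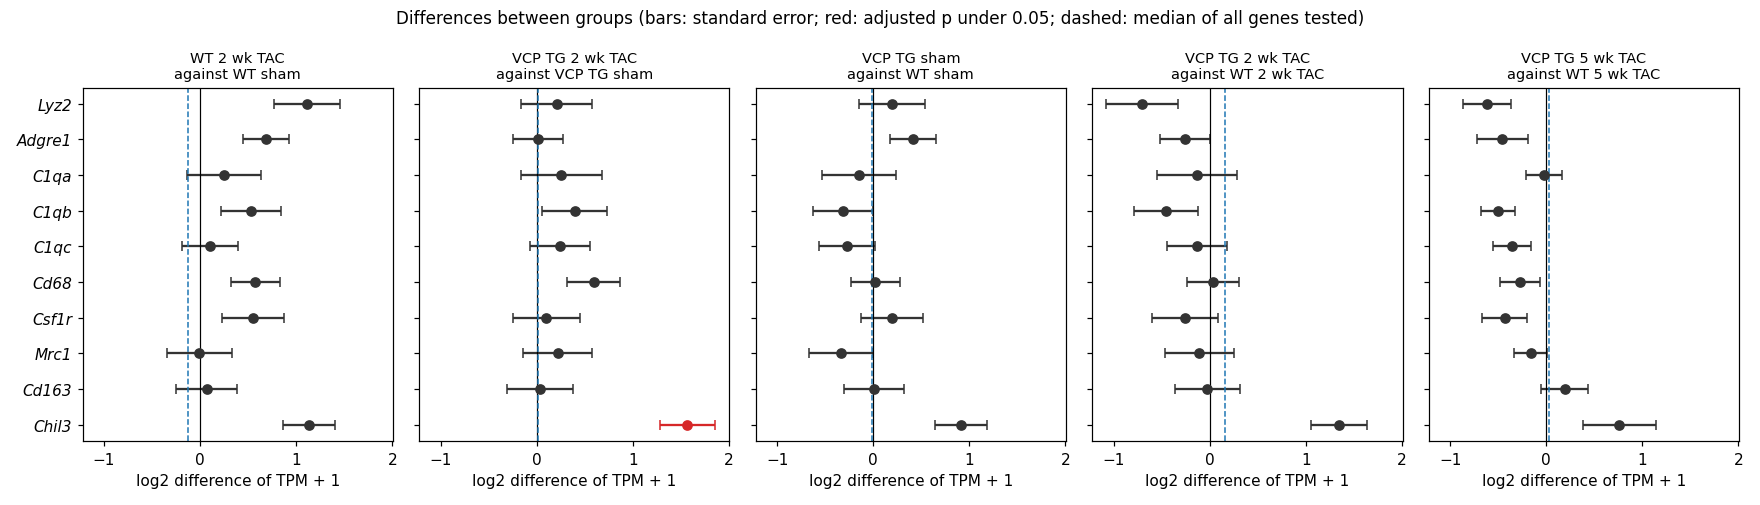
Difference of each gene on the log2(TPM + 1) scale (points) with its standard error (bars) in 5 comparisons, by limma. Dashed lines give the median of all genes tested, and the red point is Chil3 in VCP TG TAC against sham (1.57 ± 0.29), the only one with an adjusted p under 0.05. Under TAC at 5 weeks, 8 of 10 points lie below 0.

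Within groups, 9 of the 10 genes varied together and Chil3 did not. Over the 15 libraries of the 2-week table, deviations of log2(TPM + 1) from the group means had a Pearson r of 0.91 for Mrc1 and Cd163, 0.88 for Lyz2 and C1qc, and 0.88 for C1qb and C1qc. For each of the 9 genes other than Chil3 the median r with the other members lay between 0.50 (Csf1r and Adgre1) and 0.81 (C1qc). For Chil3 it was -0.10, with a range of -0.18 to 0.12. These values describe libraries that share a total, a dissection and an RNA preparation, and carry no test.

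**Figure D4:**
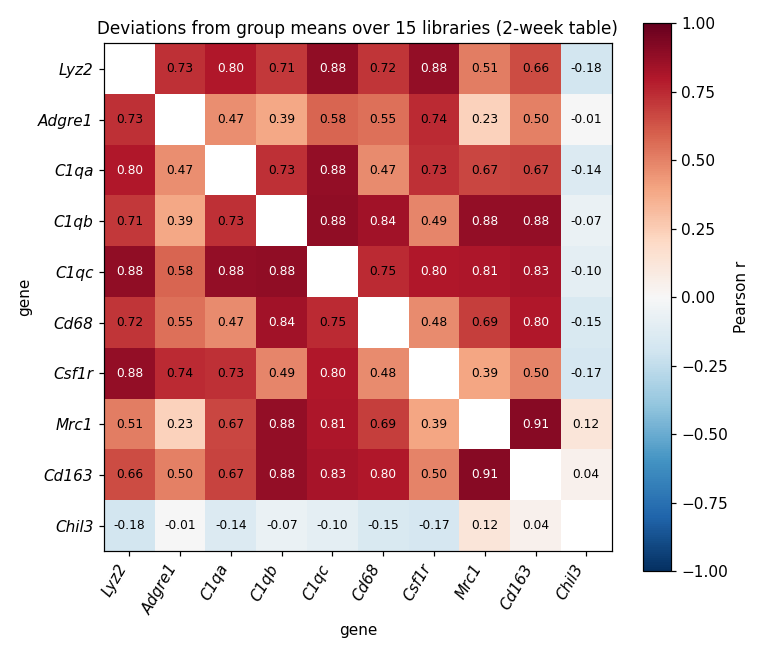
Pearson r between pairs of the 10 genes over 15 libraries of the 2-week table, computed on deviations of log2(TPM + 1) from the mean of each group. Mrc1 and Cd163 have the highest r (0.91), and the row of Chil3 runs from -0.18 to 0.12.

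The genes whose level was most like the mean of the 10 over those 15 libraries were Ms4a6c (r = 0.92), the complement receptor C3ar1 (0.92), the ribonuclease Rnase4 (0.91), cathepsin C (Ctsc, 0.91) and complement C3 (0.91). Over the 7 libraries of the 5-week table the same measure was 0.28, 0.75, 0.90, 0.88 and 0.58. Ms4a6c ranged from 1.70 to 10.4 TPM and C3 from 11.6 to 117 TPM at 2 weeks.

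Further genes of macrophage biology were followed in 8 lists, and 0 of the 60 to 66 tested passed in any of the 7 comparisons by limma in the fits of all groups. They were measured in whole tissue, so their levels cannot be assigned to macrophages alone. Of all genes tested, 35.6% were above 0 with TAC in WT and 52.4% with TAC in VCP TG. For VCP TG against WT at 5 weeks of TAC it was 54.3%. An unadjusted p under 0.05 was found for 9 of 65 with TAC in WT (13.8%, against 11.4% of all genes) and 4 with TAC in VCP TG (6.15% against 8.77%). For VCP TG against WT it was found for 5 after sham surgery (7.69% against 3.96%), 1 at 2 weeks of TAC (1.54% against 9.58%) and 7 of 60 at 5 weeks of TAC (11.7% against 4.49%), 6 of them lower. Of 10 complement genes 9 were tested at 2 weeks. With TAC in WT 8 of the 9 were above 0 (median 0.34), and for VCP TG against WT at 5 weeks of TAC 8 of 9 were below 0 (median -0.21). C3, the central component, was at 22.1 ± 6.80 TPM in WT sham against 50.4 ± 45.3 in WT 2 weeks TAC (SD, n = 4 each), and the C1 inhibitor Serping1 at 76.2 ± 8.71 and 114 ± 66.3. C4b was at 3.86 ± 1.83 and 10.999 ± 13.6 TPM in the same groups. These TAC means rest on WT 2 weeks TAC replicate 1, which held 117 TPM of C3, 209.97 of Serping1 and 30.97 of C4b. Without it the means were 28.0 ± 9.37 for C3, 81.7 ± 20.6 for Serping1 and 4.34 ± 3.20 for C4b (n = 3).

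The ligands of the CSF1 receptor and regulators of the lineage had a median of -0.20 over 10 genes with TAC in WT, of which 7 were below 0. For all genes tested there the median was -0.13, with 35.6% above 0. Il34, the second ligand of the receptor, was at 4.30 ± 1.42 TPM in WT sham against 1.40 ± 0.46 in WT 2 weeks TAC (-1.12 ± 0.41, limma adjusted p = 0.365). Il34 fell in the limma fit of the WT groups alone (adjusted p = 0.0245), where 6.31% of all genes tested were called lower. Csf1 was at 20.7 ± 8.55 TPM in WT sham against 19.9 ± 4.97 in WT 2 weeks TAC. At 5 weeks of TAC, the Il34 mean was 1.93 ± 0.33 TPM for WT (n = 4) against 4.09 ± 0.51 TPM for VCP TG (n = 3), a difference of 0.80 ± 0.18 (limma adjusted p = 0.904). Without the libraries whose Vcp went against the label Il34 was at 1.52 and 2.20 TPM in WT and 4.44 and 3.51 TPM in VCP TG. Csf2ra was at 4.75 ± 0.45 TPM in WT sham and Cebpb at 6.16 ± 1.25.

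Genes of resident heart macrophages were above 0 for 9 of 10 with TAC in WT (median 0.43) and for 9 of 10 in VCP TG (median 0.31). Cbr2 was at 11.3 ± 4.46 TPM in WT sham against 21.4 ± 5.20 in WT 2 weeks TAC (0.90 ± 0.31, limma adjusted p = 0.348), and Lyve1 at 10.9 ± 5.27 and 12.6 ± 9.04. Without WT 2 weeks TAC replicate 1 the TAC means were 19.3 ± 3.76 for Cbr2 and 8.48 ± 4.47 for Lyve1. F13a1, a coagulation factor that resident cells also make, was at 8.45 ± 3.70 and 10.9 ± 3.22. Pf4, a platelet chemokine that macrophages also make, had means at 5 weeks of TAC of 19.7 ± 3.11 TPM (WT) and 9.09 ± 0.61 TPM (VCP TG), a difference of -1.02 ± 0.18 (limma adjusted p = 0.488). Without the libraries whose Vcp went against the label Pf4 was at 20.3 and 18.1 TPM in WT and 9.54 and 9.33 TPM in VCP TG.

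Of 10 genes of recruited monocytes, 6 were tested at 2 weeks and 1 of them was above 0 with TAC in WT (median -0.19). The median of all genes tested was -0.13 there, with 35.6% above 0. Ly6c2 was at 2.11 ± 1.19 TPM in WT sham against 1.67 ± 0.31 in WT 2 weeks TAC, Itgam (CD11b) at 4.08 ± 2.09 and 3.21 ± 0.91, and the lipopolysaccharide co-receptor Cd14 at 6.92 ± 4.64 and 3.19 ± 2.80 (1.79 ± 0.189 without WT 2 weeks TAC replicate 1). Nr4a1 was at 23.9 ± 24.0 and 3.31 ± 1.24 TPM.

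Phagocytosis and scavenger receptors were divided, with 5 of 9 above 0 with TAC in WT (median 0.08). Axl, a receptor for the uptake of dying cells that other cells of the heart also express, was at 34.1 ± 7.16 TPM in WT sham against 17.1 ± 4.797 in WT 2 weeks TAC (-0.97 ± 0.40, limma adjusted p = 0.388). Axl fell in the limma fit of the WT groups alone (adjusted p = 0.0281), where 6.31% of all genes tested were called lower. Fcer1g, the signalling chain of Fc receptors, was at 9.61 ± 1.84 TPM in WT and 5.55 ± 1.44 in VCP TG at 5 weeks of TAC (-0.70 ± 0.22, limma adjusted p = 0.904). Cd36 was at 236 ± 69.6 TPM in WT sham, above the summed TPM of the 10 macrophage genes there (97.2 to 157). Stab1 was at 32.8 ± 7.23 TPM.

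Lysosomal and secreted products had a median of 0.21 with TAC in WT, with 7 of 9 above 0, and of -0.35 for VCP TG against WT at 5 weeks of TAC, with 7 of 9 below 0. The cathepsin Ctsd was at 157 ± 20.1 TPM in WT sham against 105 ± 14.6 in WT 2 weeks TAC, while Ctsb (34.8 ± 5.68 and 35.6 ± 5.73), Lgmn (26.6 ± 4.73 and 30.8 ± 5.27) and Apoe (184 ± 41.0 and 256 ± 194, or 160 ± 42.0 without WT 2 weeks TAC replicate 1) differed by less than the spread between libraries.

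Alternative activation genes were above 0 for 6 of 7 tested with TAC in WT (median 0.38). The median of all genes tested was -0.13 there, with 35.6% above 0. Chil4 rose in the fit of the WT groups alone (1.09 ± 0.25, limma adjusted p = 0.0309), where 0.722% of all genes tested were called higher. Retnla, known beside Chil3 from the response to interleukin 4, was at 2.82 ± 1.15 TPM in WT sham, 4.15 ± 2.501 in WT 2 weeks TAC, 6.60 ± 4.98 in VCP TG sham and 7.11 ± 1.41 in VCP TG 2 weeks TAC. Without WT 2 weeks TAC replicate 1, which held 7.75 TPM, the Retnla mean of that group was 2.95 ± 0.859 TPM. Mgl2 (3.45 ± 3.12 and 4.42 ± 0.72) and Ccl24 (1.20 ± 0.35 and 1.37 ± 0.29) differed little between WT sham and WT 2 weeks TAC, and the interleukin 4 receptor chain Il4ra was at 5.56 ± 3.93 and 1.58 ± 0.57 TPM.

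MHC class II presentation genes were below 0 for 4 of the 4 tested for VCP TG against WT at 5 weeks of TAC (median -0.57). The invariant chain Cd74 was at 57.7 ± 21.5 TPM in WT and 36.2 ± 22.2 in VCP TG there, H2-Aa at 23.8 ± 12.1 and 16.1 ± 9.45, H2-Ab1 at 16.5 ± 4.44 and 11.6 ± 7.12, and H2-DMa at 2.11 ± 0.68 and 1.23 ± 0.09.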

How the data were processed

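RNA of the left ventricle was extracted with Qiagen miRNeasy and sequenced from Illumina TruSeq Stranded mRNA libraries, per the labels' protocols. The deposited values are TPM per gene, made by the authors in 2 separate tables (15 libraries at 2 weeks, 7 at 5 weeks). The submitters' processing notes list Trimmomatic 0.35, kallisto 0.43.1, STAR 2.5.4b, DESeq2 and GRCm38 with no role or order, and the sources used here do not say which of them made the TPM values. Each column sums to 1000000, so a large share of mitochondrial transcripts lowers all other values, and TPM keep no depth, so no counting interval is given.

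Identifiers were matched to GENCODE M21 (30074 of 30735 found). Values were tested on log2(TPM + 1), a scale that understates changes of low genes, with limma 3.58.1 in R 4.3.3 (group means, variance trend, robust estimation, Benjamini-Hochberg adjustment over all genes tested, threshold 0.05). Genes needed 1 TPM in 3 libraries. The 4 groups of the 2-week table shared one fit (15540 genes), the 5-week groups another (13986 genes) and all 6 groups were fitted together for the comparison over time (16347 genes). The fit was tested on simulated data. Python 3.11.15, pandas 2.3.3 and matplotlib 3.10.9 were used for the rest.

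All 10 genes are named, then from each further list every gene past the threshold or else up to 4 with the highest mean TPM, and the 5 protein-coding genes most correlated with the mean of the 10. Il34, Chil4 and the marker genes named beside Chil3 were chosen after their values were seen. Some genes that the rule names are not reported here. The 10 genes and the lists were chosen with earlier results of these data known. Alternatives were another pseudocount, no filter, quantile normalization, rescaling to nuclear protein-coding genes, no variance trend, fits of the 2 groups alone, a replicate block and leaving out libraries. Summing Chil3 with Chil4 and Lyz2 with Lyz1 was added after seeing the data.

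The labels do not say what a replicate number means. Deviations of same-numbered libraries from their group means correlated above 0.1 in every pair only between VCP TG sham and WT sham (r = 0.11 to 0.26, mean 0.17). Differently numbered libraries of these groups correlated from -0.25 to 0.23 (mean -0.06), so pairing there is not settled. The blocked value is given beside the unblocked one for that comparison. All reported values come from fits without the block unless named.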

Additional observations from a re-analysis of the deposited data

Results flagged for a closer look

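In WT 2 weeks TAC, replicate 1 stood apart from the other 3 libraries of its group for 3 genes: Adgre1 at 2.88 TPM (others 1.67 to 1.79), Csf1r at 15.3 TPM (others 7.53 to 7.82) and Mrc1 at 14.7 TPM (others 6.26 to 7.55). In WT 5 weeks TAC, Adgre1 in replicate 3 was at 0.687 TPM (others 1.94 to 2.19). In each case the gap to the nearest library, as a share of the range of the group, was above Dixon's critical value at the 95% level. Of 40 such tests 4 passed, and chance passes about 1 in 20. Both libraries also had a Vcp level against the label, and its part in these values was not tested.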

How the results depend on the processing

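Of the values of single genes, 482 kept direction and side of the threshold, 42 changed sign, 4 newly passed and 6 no longer passed. The replicate block was fitted on the groups compared alone and only with replicate numbers that every group holds, so it left out replicate 4 of each 4-library group wherever a VCP TG TAC group entered. Its values there change the library set and the block together. Genes called with TAC in WT (0) were 8 with a pseudocount of 0.1, 2 after quantile normalization, 21 after rescaling to nuclear protein-coding genes, 964 in a fit of the 2 groups alone, 659 with a replicate block and 732 without libraries rich in Myl7, and of the 10 genes 1 passed in the fit of the 2 groups alone and 2 with the block. With TAC in VCP TG (120) they were 2 with the pseudocount, 1846 without a filter, 53 in the fit of 2 groups, 3 with the block, 17 without libraries with Vcp against the label and 55 without those rich in Myl7, and 0 of the 10 genes passed with the pseudocount, quantile normalization, rescaling, 2 groups, the block or without those rich in Myl7. For VCP TG against WT after sham surgery (0) they were 1 with the pseudocount and 2 each in the fit of 2 groups, with the block and without libraries with Vcp against the label. At 2 weeks of TAC (14) they were 1 with the pseudocount, 634 without a filter (1 of the 10), 9 after quantile normalization, 6 after rescaling, 8 in the fit of 2 groups, 9 without Vcp against the label and 0 without those rich in Myl7. At 5 weeks (1) they were 0 after rescaling, with the block and without Vcp against the label. For the difference of responses (1) they were 0 with the pseudocount, rescaling, the block or without those rich in Myl7, 24 without a filter, 2 after quantile normalization and 4 without a variance trend, and for the difference over time (1) they were 6 without a filter and 0 with rescaling, the block or without either set of libraries. Signs changed with TAC in WT for C1qc (-0.14) and Cd163 (-0.15) without either set and for Mrc1 after quantile normalization (0.20) and rescaling (0.0073). With TAC in VCP TG (where the block fit gave the same differences as leaving out VCP TG sham replicate 4) they changed for Lyz2 (-0.10 rescaled, -0.023 block), Adgre1 (-0.23 quantile, -0.24 rescaled, -0.043 block, -0.27 without Myl7-rich), C1qa (-0.24 block, -0.059 without Myl7-rich), C1qc (-0.059 rescaled), Csf1r (-0.18 rescaled, -0.13 block, -0.0078 without Myl7-rich), Mrc1 (-0.050 rescaled, -0.00084 block) and Cd163 (-0.11 quantile, -0.20 rescaled, -0.14 block). After sham surgery they changed for C1qa (0.12 without Myl7-rich), Cd68 (-0.029 rescaled, -0.051 without Myl7-rich) and Cd163 (-0.061 and -0.17). At 2 weeks of TAC they changed for C1qa (0.061 without Vcp against the label, 0.011 without Myl7-rich), C1qc (0.11), Cd68 (-0.14 quantile, -0.34 rescaled), Mrc1 (0.15 and 0.11) and Cd163 (0.20 and 0.12), at 5 weeks for Cd163 (-0.10), in the difference of responses for Chil3 (-0.42 pseudocount, -0.26 rescaled) and over time for Lyz2 (-0.10 and -0.065). Leaving out 1 library at a time gave 0 to 1 genes called with TAC in WT, 1 to 753 in VCP TG (0 to 1 of the 10), 0 to 1 after sham surgery, 1 to 15 at 2 weeks, 0 to 3 at 5 weeks, 0 to 4 for the difference of responses and 1 to 2 over time. Differences then crossed 0 with TAC in WT for C1qc (-0.14 to 0.25), Mrc1 (-0.26 to 0.19) and Cd163 (-0.17 to 0.20), with TAC in VCP TG for Lyz2 (-0.023 to 0.41), Adgre1 (-0.11 to 0.15), C1qa (-0.24 to 0.58), Csf1r (-0.13 to 0.32), Mrc1 (-0.00084 to 0.56) and Cd163 (-0.14 to 0.33), after sham surgery for Lyz2 (-0.0044 to 0.46), C1qa (-0.47 to 0.35), Cd68 (-0.14 to 0.13), Csf1r (-0.028 to 0.43) and Cd163 (-0.28 to 0.18), at 2 weeks for C1qa (-0.37 to 0.061), C1qc (-0.29 to 0.11), Cd68 (-0.086 to 0.22), Mrc1 (-0.22 to 0.15) and Cd163 (-0.16 to 0.20), at 5 weeks for C1qa (-0.087 to 0.093) and over time for Lyz2 (-0.19 to 0.36). The causes of these changes were not tested. In the comparisons other than VCP TG sham against WT sham, same-numbered libraries correlated from -0.23 to 0.16, without a sign of pairing. The set rich in Myl7 was taken from the 2-week table alone, so that alternative gave no value at 5 weeks. WT 5 weeks TAC replicate 3 held 104 TPM of Myl7 and was kept in the fit over time. In the 2-week table the lowest library of the set held 154 TPM and the highest library outside it 55.6 TPM.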
